A study of Mus musculus with 7 samples.

Results

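Expression of 10 chemokine ligand genes, Ccl1, Ccl3, Ccl4, Ccl6, Ccl22, Cxcl10, Cxcl11, Cxcl12, Cxcl16 and Xcl1, was followed in splenic regulatory T cells (Tregs) of aged and young mice. The genes were chosen by symbol, and each symbol matched 1 of the 25469 genes in the table of the series. Aged Tregs came from wild-type (WT) mice 18 months old (3 libraries) and young Tregs from WT mice that the labels give as 8 weeks old (4 libraries). The animal methods describe male C57BL/6 mice and an age of 10 weeks for the young ones. No surgery or drug is named for these libraries. The cells were bead-enriched CD4+CD25+ splenocytes, a fraction that holds mostly but not only Tregs, and their cDNA was amplified with the SMART-Seq v4 kit.

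Chemokines guide leukocytes by binding receptors coupled to G proteins on the migrating cell. Activated T cells and macrophages release Ccl3 and Ccl4, which attract T cells and myeloid cells, and Ccl22 and Ccl1 draw T cells that carry Ccr4 and Ccr8. Interferons induce Cxcl10 and Cxcl11, the ligands of Cxcr3, while Cxcl12 from stromal cells retains leukocytes through Cxcr4.

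Promoter stretches of 250 bases before the transcription start are shown for 4 of the genes because Cxcl10 and Ccl1 hold sequence patterns of the interferon or NF-kappa B pathways and Ccl22 and Ccl3 do not. They are RefSeq sequences on GRCm38.p6, where 7 of the 10 genes had an entry, and Ccl4, Cxcl11 and Cxcl16 are named only. Each is written 5′ to 3′ along the gene, and capitals mark matches on either strand to the kappa B consensus, the interferon-stimulated response element (GAAA, any 2 bases, GAAA), the gamma-activated site (TTCNNNGAA), AP-1 (TGANTCA) or the TATA box (TATAAA).
Cxcl10, chr5:92348890-92349139, minus strand: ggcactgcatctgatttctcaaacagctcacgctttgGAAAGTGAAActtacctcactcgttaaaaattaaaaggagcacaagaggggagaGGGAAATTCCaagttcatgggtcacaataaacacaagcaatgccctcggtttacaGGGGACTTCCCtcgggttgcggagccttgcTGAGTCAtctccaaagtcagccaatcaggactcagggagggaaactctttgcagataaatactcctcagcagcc
Ccl1, chr11:82179813-82180062, minus strand: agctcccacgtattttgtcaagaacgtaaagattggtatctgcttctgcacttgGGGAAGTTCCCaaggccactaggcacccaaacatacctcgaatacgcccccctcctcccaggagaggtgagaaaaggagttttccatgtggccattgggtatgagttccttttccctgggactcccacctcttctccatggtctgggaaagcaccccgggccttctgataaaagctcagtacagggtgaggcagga
Ccl22, chr8:94745434-94745683, plus strand: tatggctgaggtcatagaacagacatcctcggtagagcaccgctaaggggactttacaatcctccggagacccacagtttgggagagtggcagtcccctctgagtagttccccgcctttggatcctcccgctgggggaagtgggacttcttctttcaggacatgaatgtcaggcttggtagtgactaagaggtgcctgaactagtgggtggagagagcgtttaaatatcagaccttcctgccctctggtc
Ccl3, chr11:83649379-83649628, minus strand: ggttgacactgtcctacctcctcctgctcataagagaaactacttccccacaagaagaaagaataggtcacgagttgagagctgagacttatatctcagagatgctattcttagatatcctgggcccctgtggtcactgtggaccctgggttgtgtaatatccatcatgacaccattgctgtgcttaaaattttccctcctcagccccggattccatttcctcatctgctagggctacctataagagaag
Cxcl10 held the interferon-stimulated response element at -213 to -204 relative to the start, kappa B matches at -159 to -150, -104 to -95 and -103 to -94, of which the last pair overlap, and AP-1 at -74 to -68. Ccl1 held overlapping kappa B matches at -196 to -187 and, on the opposite strand, -195 to -186. The windows of Ccl22, Ccl3, Ccl6, Cxcl12 and Xcl1 held none of these letters. Among 32851 RefSeq windows of this length, 7.25% held the kappa B consensus, 2.98% the interferon-stimulated response element, 7.02% the gamma-activated site, 6.75% AP-1 and 12.4% the TATA box. The starts are those of RefSeq. By GENCODE, all of the Ccl1 window, the last 94 bases for Ccl22 and the last 5 for Xcl1 lie inside the gene. A match describes letters only, and binding was not measured.

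The libraries held 10734234 to 13649310 gene counts, and the aged ones were the shallower. Levels are given as CPM, counts per 1000000 on the TMM scale, on which the detection limit of 3 counts was 0.21 to 0.302 CPM. Foxp3, the transcription factor of Tregs, was at 447 to 622 CPM in aged and 394 to 518 CPM in young Tregs. Mitochondrial genes took 5.08% to 10.7% of the counts in aged and 2.63% to 3.23% in young libraries, most in aged replicate 1.

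The 10 genes together were more abundant in every aged library than in any young one, at a mean sum of 105 ± 4.63 CPM (SD, n = 3) against 35.8 ± 4.39 CPM (SD, n = 4). The sum was 110, 102 and 103 CPM in aged replicates 1 to 3 and 30.3, 39.2, 39.4 and 34 CPM in young replicates 1 to 4. Differences are given as the log2 fold change of aged over young (LFC) with its standard error (SE), from the quasi-likelihood test of edgeR with Benjamini-Hochberg adjustment over all genes. In such bulk samples, fewer cells of a type and less RNA per cell cannot be told apart.

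Of the 10 genes, 9 passed the low-count filter, and 5 of these were called higher in aged Tregs at an adjusted p under 0.05, namely Cxcl10, Cxcl16, Cxcl12, Ccl22 and Ccl4. Ccl1, Ccl3, Xcl1 and Ccl6 had an LFC above 0 but were not called, and Cxcl11 was under the filter. Among all 13904 genes tested, 16.7% were called, 9.8% higher and 6.94% lower. After removal of GC content and length trends, 8.85% of genes were called higher, and the 5 members stayed called. DESeq2 called 8 members higher, all but Ccl6, against 14.3% of all genes. The median LFC was 1.58 over the 9 members and 0.02 over all genes tested. The filter could be passed through the aged libraries alone, and the genes were chosen with results of these libraries known, so the count and the median are descriptions.

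**Figure D1:**
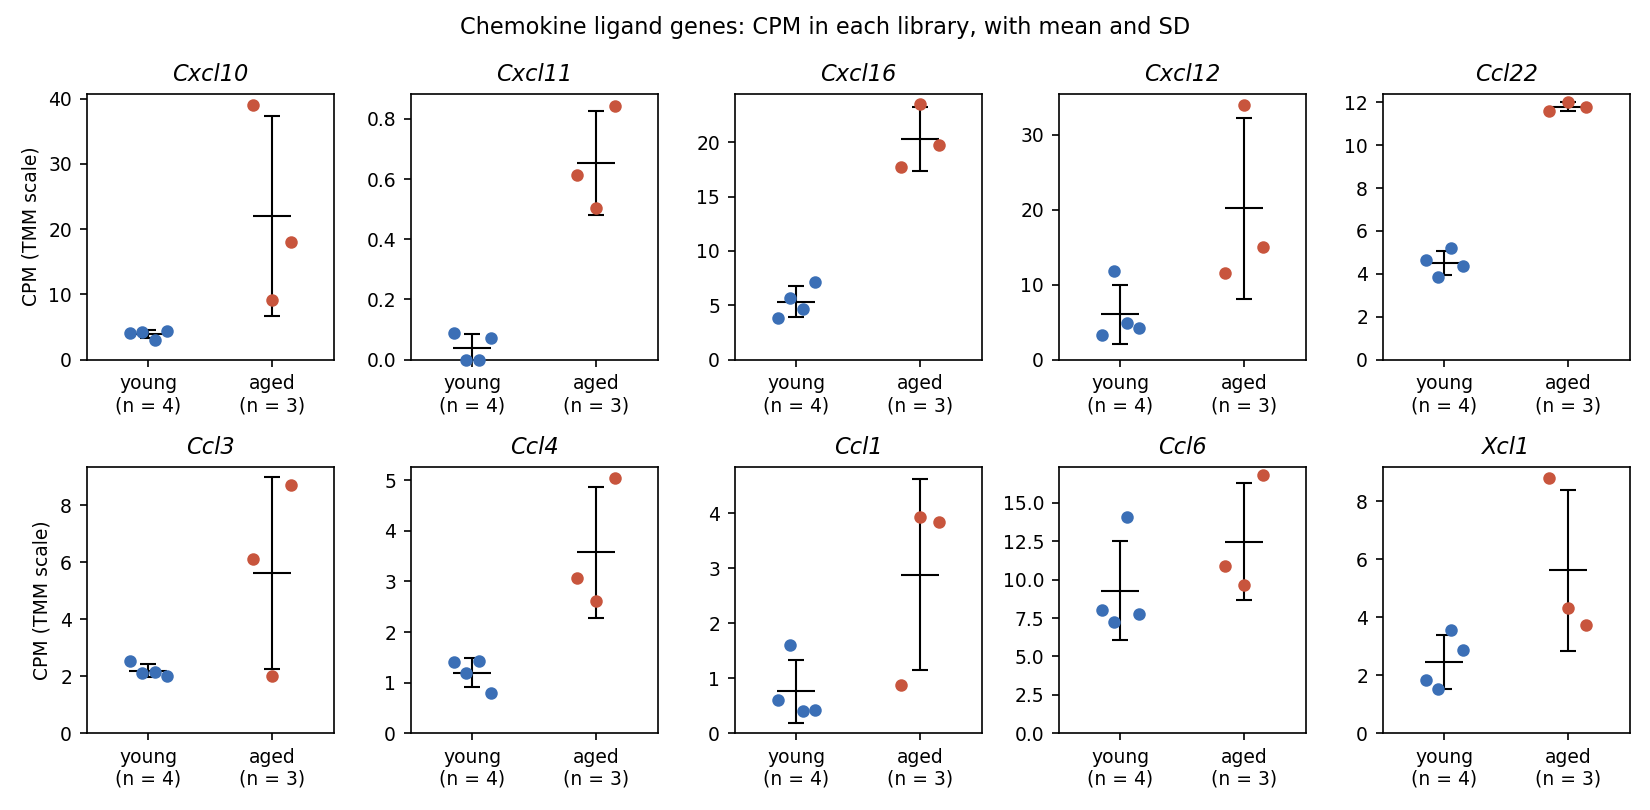
CPM on the TMM scale (y axis, linear from 0, one scale per gene) of each chemokine ligand gene in the 4 young (blue) and 3 aged (red) libraries, with the mean and SD in black. The aged values lie above all young values for Cxcl10, Cxcl11, Cxcl16, Ccl22, Ccl4 and Xcl1, and the ages overlap for Cxcl12, Ccl3, Ccl1 and Ccl6.

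Every aged value was above every young value in 5 of the 9 tested members (Cxcl10, Cxcl16, Ccl22, Ccl4 and Xcl1), against 15.5% of all genes tested. Cxcl11 showed the same separation. No aged library was highest throughout, since aged replicate 1 was highest for 2 members and aged replicates 2 and 3 for 4 each.

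Among the ligands of Cxcr3, Cxcl10 (ENSMUSG00000034855, GRCm38 chr5:92346638-92348889, minus strand) had the highest LFC of the tested members. Its promoter is the one above with the interferon and kappa B matches. Cxcl10 was at 39, 9.16 and 18 CPM in aged replicates 1, 2 and 3, and at 4.11, 4.2, 3 and 4.37 CPM in young replicates 1, 2, 3 and 4. The young values were close together, while the highest aged value was 4.25 times the lowest. The means were 22 ± 15.3 CPM (SD, n = 3) and 3.92 ± 0.623 CPM (SD, n = 4), with an LFC of 2.49 (SE 0.43, adjusted p = 0.00754, edgeR). Omitting aged replicate 1 left an LFC of 1.78 (adjusted p = 0.00682, edgeR), and Cxcl10 was called in all 7 fits that omitted a library. Exons of Art3 cover 5.91% of its exon length, where reads that lie on both genes were not counted.

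Cxcl11 (ENSMUSG00000060183, chr5:92359544-92365485, minus strand) lies 10654 bases from Cxcl10. The table of the series lists it as a polymorphic pseudogene. It had 7, 5 and 9 counts in the aged libraries and 1, 0, 0 and 1 in the young ones. Thus every aged count was above the detection limit and every young count below it. Taking each young library at its limit of 3 counts, the aged mean of Cxcl11 was 2.82 times the mean young limit. This ratio makes no allowance for counting error in the aged libraries. An exact permutation test on log2(CPM + 0.1) gave p = 0.0571 (two-sided), the smallest possible with 3 against 4 libraries. With no filter on low counts Cxcl11 was called (adjusted p = 0.0152, edgeR). Exons of Gm2673 cover 41.7% of its exon length.

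Cxcl16 (ENSMUSG00000018920, chr11:70453983-70459984, minus strand), which encodes a membrane-anchored ligand of Cxcr6, was at 17.7, 23.5 and 19.7 CPM in the aged and 3.85, 5.68, 4.66 and 7.17 CPM in the young libraries. The ages were well apart. Mean levels of 20.3 ± 2.92 CPM (SD, n = 3) and 5.34 ± 1.43 CPM (SD, n = 4) gave an LFC of 1.92 (SE 0.218, adjusted p = 0.00144, edgeR). Of the 5 called members, it alone was called in all 17 alternative settings, with LFCs from 1.80 to 2.11. Exons of Zmynd15 cover 18.3% of its exon length. Adam10 and Adam17, the proteases that shed Cxcl16 from the cell surface, had LFCs of -0.20 (adjusted p = 0.217) and -0.19 (adjusted p = 0.162) in edgeR and were not called.

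Cxcl12 (ENSMUSG00000061353, chr6:117168535-117181367, plus strand) was at 11.6, 33.9 and 15 CPM in the aged and 3.23, 11.8, 4.9 and 4.23 CPM in the young libraries. Replicate 2 was the highest of each age, and aged replicate 1 fell just below young replicate 2. The LFC of 1.72 (SE 0.501, adjusted p = 0.0487, edgeR) had the highest adjusted p of the 5 calls. It was lost in 5 of the 7 fits that omitted a library, which were those without aged replicate 2 (LFC 1.13, adjusted p = 0.157), without aged replicate 3 (1.90, adjusted p = 0.0825), without young replicate 1 (1.53, adjusted p = 0.108) and without young replicate 3 (1.64) or 4 (1.58, both adjusted p = 0.12). Without young replicate 2 the LFC was 2.28 (adjusted p = 0.0125, edgeR). Markers of stromal cells, a known source of Cxcl12, summed to 28.3, 41.4 and 12.8 CPM in aged replicates 1 to 3 and to 8.56, 14.1, 11.1 and 11 CPM in young replicates 1 to 4. Of this list of 9 symbols, 7 were found and 5 were tested. All 5 had an LFC above 0, with a median of 1.20. Col1a2 was called higher by edgeR, while DESeq2 called 3 genes and limma voom 0. The fibroblast marker Lum, with 2 counts in aged replicate 2 and 0 in every other library, was under the detection limit throughout. Plasma cell markers were highest among the young libraries in replicate 2, at 1841 CPM against 228 to 408 CPM, but among the aged libraries in replicate 3, at 1146 CPM against 569 and 882 CPM in replicates 1 and 2. The part of these cells in the Cxcl12 result was not tested.

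Ccl22 (ENSMUSG00000031779, chr8:94745590-94751699, plus strand), the ligand that draws Ccr4-bearing Tregs, was at 11.6, 12 and 11.8 CPM in the aged and 4.63, 3.85, 5.21 and 4.37 CPM in the young libraries. Its coefficient of variation was 1.54% in aged Tregs, the lowest of the members there, and 12.5% in young Tregs. With 119 to 133 counts per aged library, counting error alone is larger than the aged spread, which therefore describes these libraries only. The LFC of 1.38 (SE 0.158, adjusted p = 0.00147, edgeR) ranged from 1.31 to 1.46 over the fits that omitted a library. Ccl17, the other ligand of Ccr4, was under the low-count filter, at 0.349 to 0.561 CPM in aged and 0.35 to 0.86 CPM in young Tregs.

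Ccl1 (ENSMUSG00000020702, chr11:82176657-82305690, minus strand), the ligand of Ccr8, was at 0.874, 3.93 and 3.84 CPM in the aged and 0.612, 1.61, 0.395 and 0.43 CPM in the young libraries. Aged replicate 1, with 10 counts, lay below young replicate 2, with 23 counts. Its LFC of 1.87 (SE 0.628, adjusted p = 0.0754, edgeR) was not called. It was called when aged replicate 1 (2.31, adjusted p = 0.0203) or young replicate 2 (2.56, adjusted p = 0.031) was omitted in edgeR. The GENCODE model of Ccl1 is long, with 12 exon blocks.

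Ccl3 and Ccl4 are neighbours on chromosome 11 with 13228 bases between them. Ccl4 (ENSMUSG00000018930, chr11:83662584-83664683, plus strand) was at 3.06, 2.62 and 5.05 CPM in the aged and 1.4, 1.19, 1.42 and 0.788 CPM in the young libraries, from 11 to 54 counts. The ages did not overlap. Its LFC was 1.58 (SE 0.327, adjusted p = 0.0152, edgeR), and omitting aged replicate 3 lost the call (1.25, adjusted p = 0.0565, edgeR). Ccl3 (ENSMUSG00000000982, chr11:83647844-83649355, minus strand) was at 6.12, 2.01 and 8.7 CPM in the aged and 2.53, 2.1, 2.13 and 2.01 CPM in the young libraries. Aged replicate 3 was highest for both genes, and aged replicate 2 was at the young level for Ccl3. With an LFC of 1.36 (SE 0.42, adjusted p = 0.059, edgeR) Ccl3 was not called. The value became 1.75 (adjusted p = 0.00572) when aged replicate 2 was omitted and 0.90 (adjusted p = 0.221) when aged replicate 3 was, both by edgeR.

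Xcl1 (ENSMUSG00000026573, chr1:164931644-164935527, minus strand) encodes a T and NK cell chemokine that recruits cross-presenting dendritic cells through Xcr1. It was at 8.82, 4.33 and 3.74 CPM in the aged and 1.84, 1.54, 3.55 and 2.87 CPM in the young libraries. The ages did not overlap, though aged replicate 3 and young replicate 3 were close. The LFC was 1.20 (SE 0.392, adjusted p = 0.0696, edgeR) and was 0.71 (adjusted p = 0.2) when aged replicate 1 was omitted, called in neither case. Exons of Gm20743 cover 18.7% of its exon length.

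Ccl6 (ENSMUSG00000018927, chr11:83587882-83593087, minus strand), a myeloid chemokine of rodents that acts through Ccr1, was at 10.9, 9.67 and 16.8 CPM in the aged and 8.04, 7.22, 14.1 and 7.74 CPM in the young libraries. Replicate 3 was the highest of each age, and the ages overlapped. Its LFC of 0.42 (SE 0.289, adjusted p = 0.349, edgeR) was the lowest of the 9, and Ccl6 was not called in any of the 17 alternative settings, where adjusted p ran from 0.108 to 0.8.

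**Figure D2:**
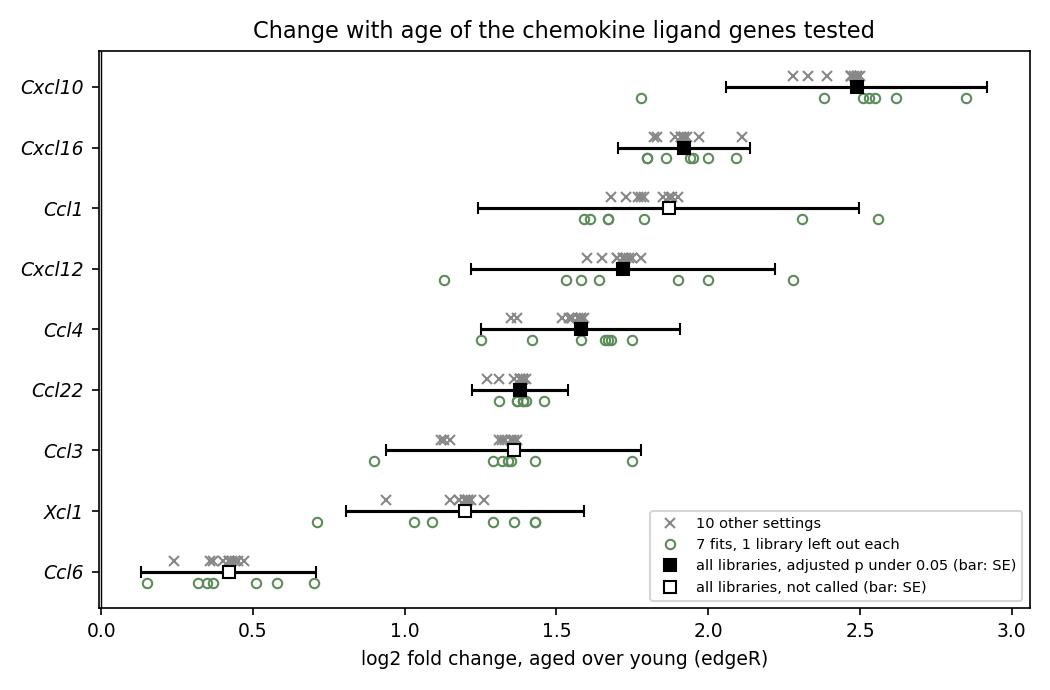
Log2 fold change of aged over young Tregs (x axis) for the 9 chemokine ligand genes tested (y axis), as squares with standard errors, filled where the adjusted p was under 0.05, with the 7 fits that omitted a library (green circles) and the 10 other settings (grey crosses). All estimates lie above 0, and those of Ccl22 (1.27 to 1.46) and Cxcl16 (1.80 to 2.11) vary less between settings than those of Cxcl10 (1.78 to 2.85) and Cxcl12 (1.13 to 2.28).

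Levels of different genes were compared as CPM per kilobase of all annotated exon, which understates genes with long unused exons. In young Tregs, Ccl6 had the highest level at 5.17 ± 1.81 (SD, n = 4), before Xcl1 at 4.68 ± 1.78 and Ccl3 at 2.86 ± 0.304. After them came Ccl22 at 1.94 ± 0.243, Ccl4 at 1.82 ± 0.444, Cxcl16 at 1.77 ± 0.474 and Cxcl10 at 1.74 ± 0.277. Cxcl12 at 0.74 ± 0.48, Ccl1 at 0.322 ± 0.242 and Cxcl11 at 0.0105 ± 0.0122 were lowest. Neighbours in this order overlapped between libraries, except Ccl3 with Ccl22 and Ccl1 with Cxcl11.

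In aged Tregs, Xcl1 came first at 10.8 ± 5.31 CPM per kilobase (SD, n = 3) and Cxcl10, in place 7 in young Tregs, came second at 9.78 ± 6.8. Ccl3 at 7.32 ± 4.4, Ccl6 at 6.93 ± 2.11, Cxcl16 at 6.71 ± 0.965, Ccl4 at 5.42 ± 1.97 and Ccl22 at 5.07 ± 0.0783 followed. Each of these overlapped its neighbour, so their order is not resolved. Cxcl12 at 2.47 ± 1.47 lay below Ccl22 without overlap, Ccl1 at 1.22 ± 0.733 overlapped Cxcl12, and Cxcl11 at 0.172 ± 0.0456 was lowest without overlap.

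**Figure D3:**
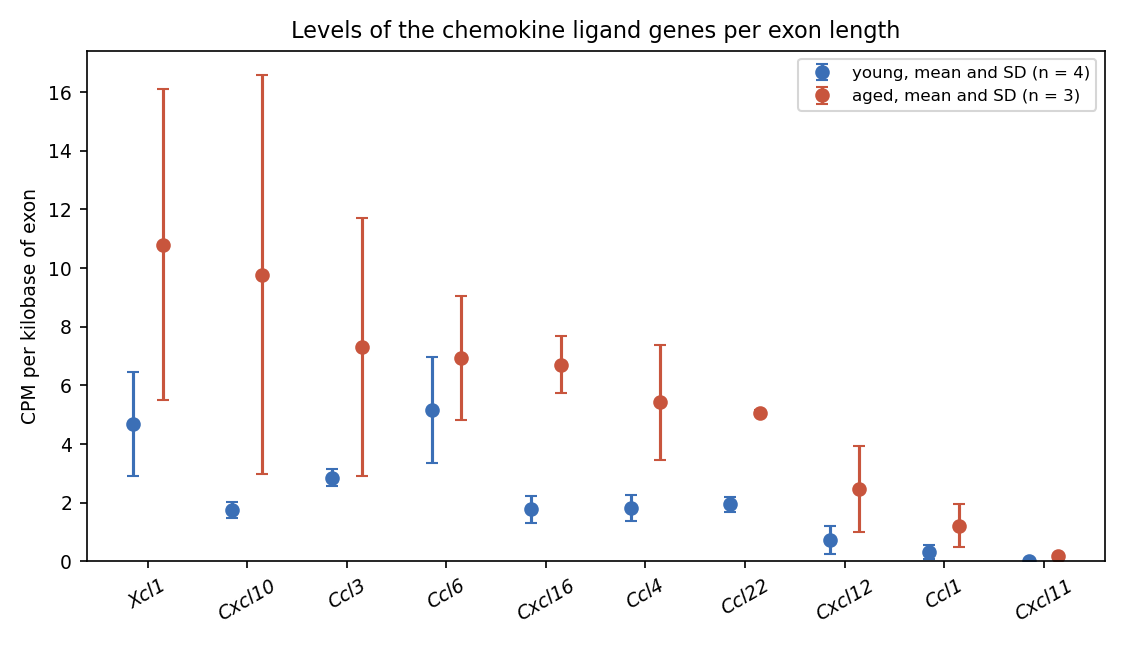
Mean level and SD of each chemokine ligand gene in CPM per kilobase of exon (y axis, linear from 0) in young (blue, n = 4) and aged (red, n = 3) Tregs, ordered by the aged mean. The genes from Xcl1 (10.8) to Ccl22 (5.07) overlap from neighbour to neighbour in aged Tregs, while Cxcl12, Ccl1 and Cxcl11 are lower.

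Of the 11 receptor genes counted for these ligands, 10 were tested and 2 were called, both higher in aged Tregs. Among all genes tested, 16.7% were called and 9.8% were called higher, shares that stand beside the list counts below as well. Cxcr3, the receptor of Cxcl10, was at 107, 114 and 103 CPM in the aged and 29, 46.7, 27.2 and 35.4 CPM in the young libraries, an LFC of 1.64 (SE 0.178, adjusted p = 0.00125, edgeR), and was called in all 17 alternative settings. Ccr1, which binds Ccl3 and Ccl6, was at 10.4 to 18.8 CPM against 2.01 to 3.06 CPM, an LFC of 2.39 (SE 0.28, adjusted p = 0.00159, edgeR). The ages did not overlap for either receptor.

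Ccr4, the receptor of Ccl22, was at 17.6 to 31.9 CPM in aged and 35 to 50.2 CPM in young Tregs, with an LFC of -0.67 (adjusted p = 0.073, edgeR) that was not called, though it was in 3 of the 17 alternative settings. Ccr8, the receptor of Ccl1, was at 40.8 to 53 CPM against 12.8 to 37.6 CPM, an LFC of 1.06 (adjusted p = 0.0508, edgeR), not called either, but called in 7 of the 17, DESeq2 and limma voom among them. Cxcr4, Ackr3, Cxcr6, Xcr1, Ackr1 and Ackr2 were not called, with LFCs from -1.05 to 0.87 and adjusted p from 0.154 to 0.767 (edgeR), and Ackr4 was under the filter. Over the fits that omitted a library, the LFC ran from -1.70 to -0.73 for Xcr1 and from 0.14 to 1.29 for Ackr1, never called.

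**Figure D4:**
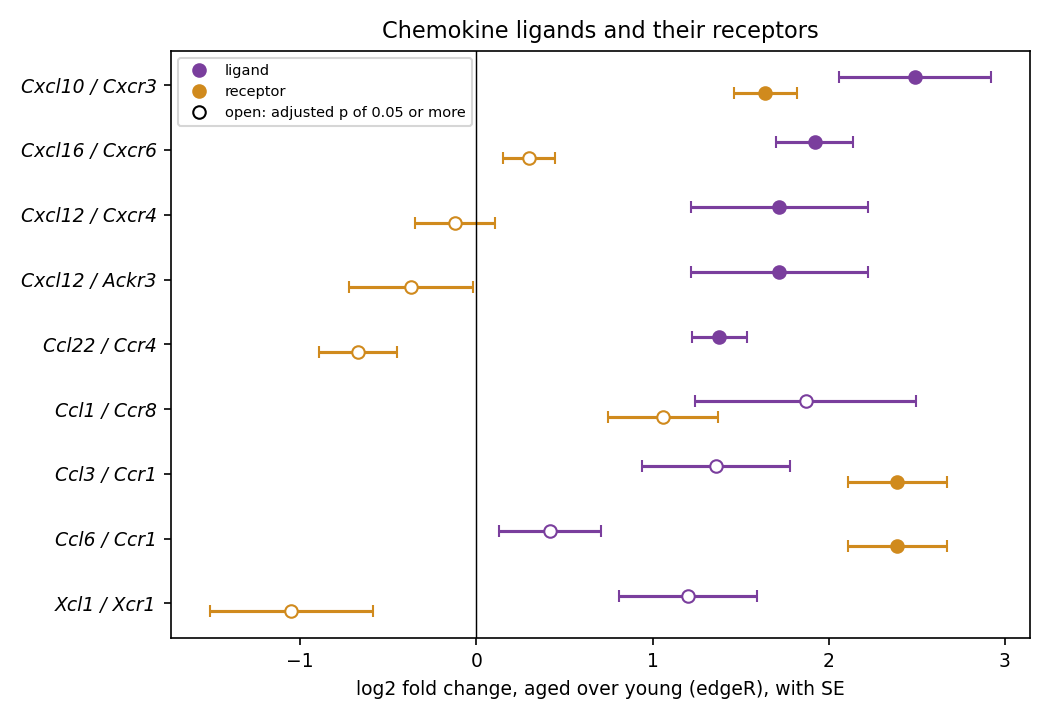
Log2 fold change of aged over young Tregs with standard error (x axis) for chemokine ligands (purple) and a receptor each binds (orange). Points are filled where the adjusted p was under 0.05. Ccl4 and Cxcl11 are not shown. Cxcl10 (2.49) with Cxcr3 (1.64) is filled for ligand and receptor, while Ccr4, paired with Ccl22, is open at -0.67.

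Genes that respond to interferon, as Cxcl10 does, were counted beside it. Of 12 tested, 4 were called, all higher in aged Tregs, with a median LFC of 0.67. The list summed to 1579 to 2187 CPM in aged and 636 to 1728 CPM in young Tregs. These sums overlapped, and the lowest was that of young replicate 2. Rsad2 made up a large and uneven part of them. It was at 144, 1036 and 413 CPM in the aged and 894, 56.6, 522 and 629 CPM in the young libraries. Its LFC was 0.02 (adjusted p = 0.992, edgeR). Of the called genes, those with the highest LFC were the antiviral GTPase gene Mx1 (2.05, adjusted p = 0.0289) and the guanylate-binding GTPase genes Gbp4 (1.03, adjusted p = 0.00317) and Gbp2 (0.87, adjusted p = 0.0107), by edgeR. Without aged replicate 1, where Mx1 was highest, its LFC was 1.12 (adjusted p = 0.0464, edgeR), and its call was lost when any young library was omitted (adjusted p from 0.0539 to 0.0763). Cxcl9, the remaining ligand of Cxcr3, was at 3.58, 2.52 and 11 CPM in the aged and 3.5 to 5.94 CPM in the young libraries and was not called (LFC 0.26, adjusted p = 0.743, edgeR).

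Of 11 T cell activation genes tested, Egr2, Tnf and Tnfrsf9 were called higher and Myc lower, with a median LFC of 0.10. Omitting a library lost the call of Tnf (all but young replicate 3), Tnfrsf9 (aged replicate 3 or young replicates 1, 3 or 4) and Myc (aged replicates 2 or 3 or young replicates 1 or 4), with adjusted p from 0.051 to 0.121. Of 7 genes for proteins that cleave, bind or sulphate chemokines or their receptors, 0 were called by edgeR (1 at an unadjusted p under 0.05) or limma voom and 1 by DESeq2. Of 10 other chemokine ligands tested, the neutrophil attractant Cxcl2 (LFC 1.92, adjusted p = 0.00258), the platelet chemokine Ppbp (1.80, adjusted p = 0.0213) and the T cell chemokine Ccl5 (1.41, adjusted p = 0.00384) were called higher and Cx3cl1 lower (-1.14, adjusted p = 0.0348) by edgeR. The call of Ppbp was lost without aged replicate 3 or young replicates 1 or 3, and that of Cx3cl1 without any library but aged replicate 1, with adjusted p from 0.0558 to 0.113. Of 9 other chemokine receptors tested, Cxcr2 and Cxcr5 were called higher and Ccr9 and Ccr7 lower, Ccr7 not without aged replicates 2 or 3 or young replicate 1 (adjusted p from 0.0516 to 0.0793).

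Transcripts of other cells that can make these chemokines were present in every library. The sum of 8 neutrophil markers was 5275, 1873 and 671 CPM in aged replicates 1 to 3 and 592, 259, 933 and 417 CPM in young replicates 1 to 4, with 3 of 8 called higher (S100a8, S100a9 and Retnlg). All 8 had an LFC above 0, with a median of 2.13, and an unadjusted p under 0.05 in edgeR. Of the tested members, Cxcl10 and Xcl1 were the highest of the aged group in aged replicate 1, and Ccl1, Ccl22, Cxcl12 and Cxcl16 the lowest. In young replicate 3, Ccl4, Ccl6, Ccl22 and Xcl1 were the highest of the young group, and Ccl1 and Cxcl10 the lowest. Without aged replicate 1, 6 members were called higher, against 11.3% of all genes in that fit. Monocyte and macrophage markers summed to 384 to 638 CPM in aged and 464 to 576 CPM in young Tregs, with Cd14 called higher and Csf1r and Adgre1 lower among 12 tested. Dendritic cell markers summed to 42.3 to 64 CPM against 60.7 to 80.3 CPM, with Zbtb46 called higher, Clec9a, Cd209a and Siglech lower among 7 tested, and Cd209a at 0 in aged replicate 1.

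Markers of NK cells, a source of Xcl1, Ccl3 and Ccl4, summed to 21.9 to 36.5 CPM in aged and 37.3 to 63.9 CPM in young Tregs, and 1 of 6 was called lower. The sums of the remaining lists were, for aged against young Tregs, 2734 to 3303 against 2188 to 3312 CPM for Tregs (1 of 7 called higher), 148 to 276 against 225 to 268 CPM for red pulp macrophages (1 of 4 lower), 21.1 to 41.5 against 8.62 to 18 CPM for platelets (2 of 5 higher) and 107 to 127 against 168 to 193 CPM for endothelium (1 of 3 lower, median LFC 0.25). The endothelial sum was nearly all Pecam1, at 104 to 123 against 165 to 190 CPM. The other tested endothelial markers, Cdh5 (LFC 0.25) and Kdr (1.09), had an LFC above 0 and were not called. For B cells the sums were 890 to 1671 against 1359 to 2119 CPM and for plasma cells 569 to 1146 against 228 to 1841 CPM. For CD8 T cells they were 45.4 to 82 against 48.8 to 92.7 CPM and for erythroid cells 12688 to 156886 against 12381 to 116148 CPM. In these 4 lists edgeR called 0 genes, with 4 of 8, 1 of 5, 0 of 2 and 0 of 6 at an unadjusted p under 0.05, DESeq2 called 3, 1, 0 and 0, and limma voom 1, 0, 0 and 0. How much of each chemokine transcript came from Tregs and how much from these cells was not tested.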

How the data were processed

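RNA-sequencing of CD4+CD25+ splenocytes (3 aged and 4 young biological replicates) was analysed. The authors deposited raw read counts per Ensembl gene and library, counted in union mode and without strand by their naming, so reads on 2 overlapping genes were counted for neither. The genome build is mm10 per the submitters' processing notes, and the aligner is not given in the sources used here. Reads assigned to no gene or ambiguously (13.1% to 20.9%) were excluded. The deposited table of the series holds signal values, which the authors made by dividing counts by a size factor, and was used for gene symbols. Its columns of means, fold changes, standard errors, statistics, p-values and adjusted p-values are the authors' own comparison and were not used. Coordinates and exon lengths come from GENCODE M21 (GRCm38).

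Counts of 13904 genes were fitted with edgeR 4.0.16 (R 4.3.3; TMM, filterByExpr by group, quasi-likelihood test, no covariate), and genes with a Benjamini-Hochberg adjusted p under 0.05 over all genes were called. The study's methods name limma without settings, and limma 3.58.1 (voom) was an alternative. Others were DESeq2 1.42.0, RLE or library-size scaling, no filter, at least 10 counts in every library, haemoglobin, immunoglobulin and mitochondrial genes left out, thinning to the smallest total, the replicate number as a block and the omission of each library. Removal of GC content and length trends was added after seeing the data. The fits were tested on simulated data. Replicates differed by more than sampling noise (chi-square per degree of freedom 8.88 to 185). Detection limits cover counting error only, since reads carry no molecular identifiers. Genes named were the members, their receptors, the called genes of other gene lists (up to 3 in each direction, by LFC), and the 3 genes most alike to each tested member. Cell markers, Foxp3, Adam10, Adam17, Ccl17, Cxcl9 and Rsad2 were named outside this rule, after their values were seen. Some genes of the lists are not reported here and were left out of the lists' counts. The members and lists were chosen with earlier results of these data known.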

Additional observations from a re-analysis of the deposited data

Results flagged for a closer look

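Ccl6 in young replicate 3, at 14.1 CPM, stood apart from the other young libraries, at 7.22 to 8.04 CPM. The gap was 0.881 of the range of the 4 young values, above Dixon's 95% critical value for 4 samples. Chance singles out about 1 in 20 such groups, and the young values of 10 members were examined. Neutrophil markers were also highest among the young libraries in replicate 3, at 933 CPM against 259 to 592 CPM, while in the aged group Ccl6 was highest in replicate 3 (16.8 CPM), where these markers were lowest (671 CPM against 1873 and 5275 CPM). Their part in the Ccl6 value was not tested. The 3 aged libraries were too few for this check.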

How the results depend on the processing

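All 9 tested members kept an LFC above 0 in each of the 17 alternatives that tested them (Ccl1 was not tested at 10 counts in every library). Over members and alternatives, 134 calls were the same, 11 were lost, 7 of them for Cxcl12, and 7 were gained. DESeq2 called 3804 genes and 8 members, against 2327 and 5 with edgeR, and the cause was not tested. Omitting each library gave 1237 to 3058 genes and 3 to 6 members. The 3 members came without aged replicate 3, and genes were fewest without aged replicate 3 (1262), young replicate 1 (1315), young replicate 3 (1270) and young replicate 4 (1237). Each such fit had fewer samples, but the fit without aged replicate 1 called 3058 genes, and the cause of these differences was not tested. Deviations from the group means had correlations of -0.0915, -0.292 and -0.138 between same-numbered aged and young libraries. Between libraries of unlike number they ran from -0.241 to 0.227. Deviations from a mean of so few libraries constrain each other, so these values cannot show whether same-numbered libraries share more than a number. With the replicate number as a block, 292 genes (2.1%) and 2 members, Cxcl12 and Cxcl16, were called. With GC content and length trends removed, chosen after seeing the data, 1231 genes were higher and 1581 lower, against 1362 and 965. Among receptors that were never called, the LFC of Cxcr4 turned from -0.12 to 0.08 without aged replicate 3 and 0.03 without young replicate 2 (-0.37 to 0.08 over all alternatives), and that of Ackr2 from 0.15 to -0.03 without young replicate 3 (-0.03 to 0.32). Of the members, Cxcl11 was the most limited by depth, with at most 9 counts in a library.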

Other observations

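For each tested member, the 3 genes with the most similar log2 CPM over the 7 libraries were listed by Pearson's r among 11956 genes. The difference between ages enters each r, which is a description. For Cxcl10 they were the interferon-inducible Gbp6 (r = 0.994) and Trim21 (0.994) and Zbtb1 (0.986). Ccl22 was most alike to 9230116N13Rik (0.996), the interferon-induced Ifitm1 (0.994) and Pou6f1 (0.993). Those of Cxcl16 were Pld2 (0.995), Slc35b1 (0.994) and Reep2 (0.992). Cxcl12 had Rnaseh1 (0.994), the immunoglobulin gene Ighg1 (0.978) and Ndufs7 (0.975), and Ccl4 had Sept2 (0.996), Gm37090 (0.994) and Zfp512 (0.991). Among the members not called, Ccl1 was nearest to Bbs4 (0.988), Naa10 (0.986) and Guk1 (0.985), and Ccl3 to Coro2b (0.984), Itgav (0.983) and Slc15a3 (0.982). Xcl1 was nearest to Tuba1b (0.979), C2cd2 (0.967) and the neutrophil gene Retnlg (0.966), and Ccl6 to Coq6 (0.992), Cask (0.926) and Gm23455 (0.924).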
